A study of Mus musculus with 8 samples.

Results

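The genes of mitochondrial protein import were described in bone marrow erythroid cells with and without KAP1. Members were the array genes whose annotated symbol starts with Timm or Tomm followed by a digit, together with Pam16, Dnajc19, Grpel1, Grpel2, Samm50, Mtx1, Mtx2, Pmpca, Pmpcb, Chchd4 and Gfer. The array table named 33 such genes, with 60 probes. Of these, 25 genes and 36 probes lay above the floor of the deposited intensities, a value of 20, on at least 4 of the 8 arrays and could be tested, out of 7178 tested genes in all.

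The study set 4 samples lacking KAP1 (KO; A4, A8, A11, A13) against 4 wild-type samples (WT; C4, C6, C8, C9). KAP1 is the product of Trim28 and silences the loci to which KRAB zinc finger proteins recruit it. All 8 samples were Ter119+CD71+ bone marrow cells, sorted by flow cytometry from mice of a mixed strain aged 8 to 12 weeks, and the description of both groups names a floxed Kap allele and stopfloxYFP. Neither the driver of recombination nor the number of animals is stated in the labels. Each p-value therefore measures sample-to-sample spread alone, and part of that may be technical. RNA was hybridised to Illumina bead arrays, which report each transcript as the fluorescence of a probe, and between 12143 and 12199 of 45281 probes were above the floor on each array. Trim28 served as the check of the labels: its probe read between 131 and 207 in KO samples and between 395 and 740 in WT samples (log2 fold change -1.71, SE 0.27, limma adjusted p = 0.0085). KO sample A8 was the array least like its own group over all tested probes, with a mean correlation of 0.894 against at least 0.934 for each other array.

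Most proteins of the mitochondrion are made in the cytosol and imported. The TOM complex of the outer membrane is the common entry gate, and the SAM complex inserts barrel-shaped proteins into the same membrane. In the intermembrane space, small TIM chaperones carry hydrophobic precursors and a disulfide relay folds cysteine-rich ones. In the inner membrane, TIM23 passes presequence proteins to the matrix with the help of a motor driven by mitochondrial Hsp70, TIM22 inserts carriers, and a matrix peptidase removes the presequence. In red cell precursors the same machinery brings in the enzymes of heme synthesis, before the mitochondria are cleared from the maturing cell.

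Import genes lay mostly higher in KO than in WT cells by small amounts, and a single gene passed the test. Tomm22, a receptor subunit of the TOM complex, rose 1.90-fold. No import gene passed as lower. Of the 25 tested genes, 18 had a log2 fold change above 0 and 7 below 0, where 58.3% of all tested genes were above 0. The median log2 fold change of the 25 genes was 0.42, beside 0.11 over all tested genes. At the threshold of adjusted p under 0.05, the background was 2.40% of all tested genes called higher and 3.25% called lower, so that 1 call among 25 genes is a share near the background. In 4 genes (Tomm22, Timm17a, Timm8b and Dnajc19) every KO sample lay above every WT sample, a pattern held by 11.3% of all tested genes, and in none did every KO sample lie below, which 7.38% of all tested genes did. At an unadjusted p under 0.05 in limma, 5 import genes were higher (Tomm22, Timm17a, Chchd4, Timm8a1 and Dnajc19) and 0 lower, beside backgrounds of 15.3% and 9.92%. Counted by probe, 1 of the 36 rose and none fell, with backgrounds of 2.46% and 3.11% over all tested probes, and 8 had every KO sample above every WT sample, against 10.5%. In sorted bulk samples, fewer cells of a type and less RNA per cell cannot be told apart.

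**Figure D1:**
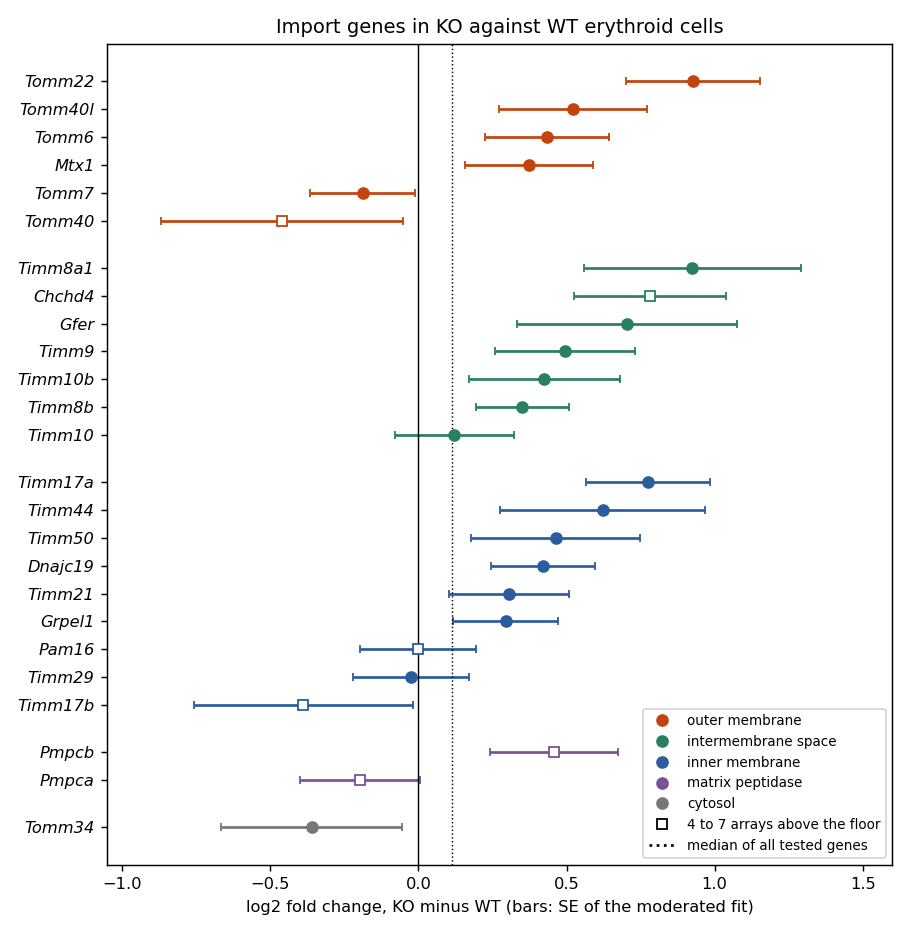
Log2 fold change, KO minus WT, of the 25 tested import genes, with the SE of the moderated fit as bars, ordered within each class. Open squares mark genes at the floor on at least 1 array, and the dotted line is the median over all tested genes (0.11); all 7 genes of the intermembrane space lie above 0, and the outer and inner membrane classes each hold genes on both sides.

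Markers of erythroid maturation and of other cells were followed in the same samples. All samples expressed erythroid genes. Of 9 tested erythroid markers 3 had a log2 fold change above 0 and 6 below, and 1 fell: Alas2, the first enzyme of heme synthesis in red cells, read between 12924 and 15745 in KO samples and between 24886 and 34336 in WT samples. The erythroid factor gene Klf1 read between 3003 and 3381 in KO samples and between 2286 and 2841 in WT samples, without overlap, and did not pass (0.32, adjusted p = 0.255). Of 10 tested late erythroid genes 6 fell, with summed intensities from 20773 to 25168 in KO samples and from 45610 to 70253 in WT samples. All 11 tested B-cell genes had a log2 fold change below 0, with 2 falling (H2-Aa and Ly6d) and sums from 2919 to 6783 in KO samples and from 8171 to 13694 in WT samples, and the defining gene Pax5 was at the floor on all arrays. Of 6 tested T and NK genes 4 had a log2 fold change below 0 and 2 above, and 1 fell (Cd2, -1.70, adjusted p = 0.0132). Nkg7 was higher on average in KO samples without passing (1.64, adjusted p = 0.177). The sums overlapped, from 276 to 765 in KO samples and from 221 to 636 in WT samples, and Cd4 and Cd8a were not tested. Of 5 tested megakaryocyte and platelet genes 1 rose: Tubb1 read between 122 and 458 in KO samples and was at the floor in every WT sample. The sum of that list lay between 599 and 848 in KO samples and between 325 and 487 in WT samples, and without Tubb1 between 390.4 and 477 in KO samples and between 305 and 467 in WT samples, which overlap. No gene of the neutrophil (11 tested), macrophage (8) or progenitor (4) lists passed. Log2 fold changes were above 0 in 7, 6 and 3 of these genes and below 0 in 4, 2 and 1, in that order. The neutrophil genes were bright in both groups. Their sums overlapped, from 51910 to 100830 in KO samples and from 49149 to 88791 in WT samples. Only S100a9 of that list did not overlap, at 3575 to 10143 in KO samples and 11170 to 17869 in WT samples (-1.07, adjusted p = 0.0882). The largest progenitor differences were in Kit (1.80, adjusted p = 0.111) and Gata2 (1.24, adjusted p = 0.105). The part of these values in the import results was not tested.

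The promoters of the 4 genes without overlap between the groups are shown because on their representative probes every KO sample lay above every WT sample. The windows run from 250 bases before to 50 bases after the RefSeq start of the gene in GRCm38.p6, 5′ to 3′ on the gene's strand. They lie at chr15:79670618-79670917, plus strand (Tomm22), chr1:135313688-135313987, minus strand (Timm17a), chr9:50603651-50603950, plus strand (Timm8b) and chr3:34081305-34081604, minus strand (Dnajc19). Capitals mark matches on either strand to CCGGAAG (the core bound by ETS factors such as GABPA), GCATGCG (the core of the NRF1 motif), CACGTG (the E box) or ATGGCGG (YY1).
Tomm22: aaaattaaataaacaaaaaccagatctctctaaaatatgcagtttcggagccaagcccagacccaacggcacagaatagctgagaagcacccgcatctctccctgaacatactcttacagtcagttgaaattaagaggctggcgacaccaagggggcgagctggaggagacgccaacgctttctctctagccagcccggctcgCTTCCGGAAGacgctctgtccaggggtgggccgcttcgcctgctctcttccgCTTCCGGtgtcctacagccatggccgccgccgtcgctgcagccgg
Timm17a: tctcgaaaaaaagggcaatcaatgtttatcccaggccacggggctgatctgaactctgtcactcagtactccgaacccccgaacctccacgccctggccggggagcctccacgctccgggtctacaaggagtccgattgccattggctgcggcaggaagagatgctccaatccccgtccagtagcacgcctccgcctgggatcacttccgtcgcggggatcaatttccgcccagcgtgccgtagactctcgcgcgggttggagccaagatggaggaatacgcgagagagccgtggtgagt
Timm8b: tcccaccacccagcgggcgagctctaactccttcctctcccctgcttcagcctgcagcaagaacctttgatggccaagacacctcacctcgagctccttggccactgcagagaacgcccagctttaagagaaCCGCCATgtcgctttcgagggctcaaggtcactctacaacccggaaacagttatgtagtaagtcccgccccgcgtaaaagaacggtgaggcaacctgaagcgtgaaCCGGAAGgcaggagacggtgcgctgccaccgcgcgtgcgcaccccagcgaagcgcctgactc
Dnajc19: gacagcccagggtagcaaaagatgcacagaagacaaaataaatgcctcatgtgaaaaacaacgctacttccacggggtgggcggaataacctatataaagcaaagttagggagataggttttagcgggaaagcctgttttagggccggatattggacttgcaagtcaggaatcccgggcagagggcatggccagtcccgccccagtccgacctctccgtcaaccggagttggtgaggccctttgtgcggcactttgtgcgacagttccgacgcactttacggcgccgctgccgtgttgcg

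The Tomm22 window held 3 ETS matches, of which a pair on opposite strands overlap in a single palindrome that starts 47 bases before the gene's start. The Timm8b window held an ETS match 12 bases and a YY1 match 118 bases before the start, and the windows of Timm17a and Dnajc19 held none of the 4 sets of letters. A window was available for 22 of the 25 tested genes. The ETS letters occurred in 10 of these 22 genes, against 22.5% of 5904 tested genes with a window and 9.93% of all 27025 genes in the table. The YY1 letters occurred in 6 of 22 (Grpel1, Mtx1, Pmpcb, Timm44, Timm50 and Timm8b), against 10.3% and 4.69%. The E box occurred in 3 (Timm10, Timm9 and Timm8a1), against 12.0% and 8.09%, and the NRF1 letters GCATGCG in 1 (Grpel1), against 7.55% and 4.01%. Forms of the NRF1 motif with other letters are not in that count. These shares describe letters in a window and do not show that a factor binds there. The 10 tested genes with the ETS letters had log2 fold changes from -0.36 (Tomm34) to 0.93 (Tomm22). Tomm34, Pmpca and Timm29 were below 0, and Tomm22, Pmpcb, Timm10b, Mtx1, Timm8b, Grpel1 and Timm10 above it. Whether the letters bear on these differences was not tested.

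In the outer membrane, 6 of 9 genes were tested, of which Tomm22 rose and 5 did not pass. Tomm22 read 130.2, 143, 105 and 127 in KO samples, in the order A4, A8, A11, A13, against 76.5, 59.2, 86.5 and 48.4 in WT samples, in the order C4, C6, C8, C9; all later values keep this order. The lowest KO sample, A11, was still above the highest WT sample, C8. The log2 intensity was 6.97 ± 0.19 in KO and 6.04 ± 0.38 in WT (SD, n = 4 each; log2 fold change 0.93, SE 0.23, limma adjusted p = 0.0479). The call is close to the threshold: it was lost when any sample but C8 was left out (adjusted p between 0.067 and 0.122, and 0.0481 without C8), with log2 fold changes from 0.78 to 1.06. The other Tomm22 probe gave only floor values, so the rise rests on 1 probe.

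The remaining outer membrane genes differed in direction. Tomm40 encodes the channel of the TOM complex. Its tested probe lay near the floor, at 21.3, 21.4, 36.2 and 24.2 in KO samples and at 21.2, 20, 60.9 and 55.6 in WT samples. WT samples C8 and C9 were well above the rest, and the groups overlapped (log2 fold change -0.46, SE 0.41, adjusted p = 0.508). Its paralog Tomm40l was well above the floor, at 119, 165, 127 and 153 in KO samples and 64.4, 134, 98.7 and 105 in WT samples (log2 fold change 0.52, SE 0.25, adjusted p = 0.229). Only C6 among the WT samples reached into the KO range, and a second probe gave nearly the same fold (0.51).

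Of the small TOM subunits, Tomm6 read 108, 121, 136 and 153 in KO samples and 72.8, 111, 91.7 and 110.1 in WT samples (log2 fold change 0.43, SE 0.21, adjusted p = 0.233). Here KO sample A4 alone fell within the WT range. Tomm7 went the other way, at 666, 716, 586 and 613 in KO samples and 794, 674, 637 and 846 in WT samples. The groups overlapped and the difference did not pass (log2 fold change -0.19, SE 0.18, adjusted p = 0.533).

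Mtx1, a metaxin of the SAM complex, had 3 tested probes that disagreed. Its brightest read 357, 362, 489 and 422 in KO samples and 266, 421, 259 and 325 in WT samples (log2 fold change 0.37, adjusted p = 0.315). A dimmer probe gave 0.98 (adjusted p = 0.0921), with KO samples between 50.2 and 73.9 and WT samples between 20 and 53.9. The third gave -0.08: it was at the floor in KO sample A8 and between 139 and 219.8 in the other KO samples. WT samples were between 70.01 and 136 on that probe. Tomm70a, a receptor for carrier precursors, and Samm50, the barrel of the SAM complex, were at the floor on every array. Mtx2 was above it on 2 arrays and was not tested.

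All 7 tested genes of the intermembrane space had a log2 fold change above 0, with a median of 0.49, and none passed the test. Timm8a1, a small TIM chaperone whose human counterpart is mutated in a deafness-dystonia syndrome, had the largest difference of the class. It read 138, 219.6, 274 and 263 in KO samples and 79.3, 212, 76.1 and 132 in WT samples (log2 fold change 0.93, SE 0.37, adjusted p = 0.160). WT sample C6 lay within the KO range and the other WT samples below it.

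Timm8b, another small TIM chaperone gene, gave the same picture on both of its probes with little spread. The brighter read 964, 1012, 1033 and 956 in KO samples and 719, 788, 763 and 843 in WT samples (log2 fold change 0.35, SE 0.16, adjusted p = 0.201). The other read between 699 and 869 in KO samples and between 490 and 676 in WT samples (0.37, adjusted p = 0.233). On neither probe did the groups overlap, although neither passed the threshold over all tested probes.

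The partners of the carrier-chaperone hexamer, Timm9 and Timm10, were not alike in size of difference. Timm9 read 155, 193, 186 and 217 in KO samples and 156, 179.6, 101 and 108 in WT samples (log2 fold change 0.49, SE 0.24, adjusted p = 0.230). Timm10 read 103, 124, 110.2 and 117 in KO samples and 118, 81.8, 131 and 92.9 in WT samples (0.12, SE 0.20, adjusted p = 0.735), with the WT samples on both sides of the KO range. Timm10b, which docks such chaperones onto TIM22, was higher on average on each of its 3 probes (log2 fold changes from 0.42 to 0.67). On the probe with the largest difference, KO samples lay between 117 and 159 and WT samples between 65.7 and 101 (adjusted p = 0.0963). Timm13 and Timm8a2 were at the floor on all arrays.

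Both genes of the disulfide relay were higher on average in KO samples without passing. Chchd4, the oxidoreductase that oxidises incoming proteins, was dim, at 43.8, 53.6, 30.2 and 30.4 in KO samples, against the floor in 3 WT samples and 30.9 in WT sample C6 (measured log2 fold change 0.78, SE 0.26, adjusted p = 0.107). Values at the floor hide any lower signal, so this fold may be understated. Gfer, the sulfhydryl oxidase that recharges Chchd4, read 95.7, 91.3, 99.1 and 118 in KO samples and 91.9, 102, 29.4 and 52.9 in WT samples (0.70, SE 0.37, adjusted p = 0.271). WT samples C4 and C6 lay within the KO range, and C8 and C9 far below it.

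**Figure D2:**
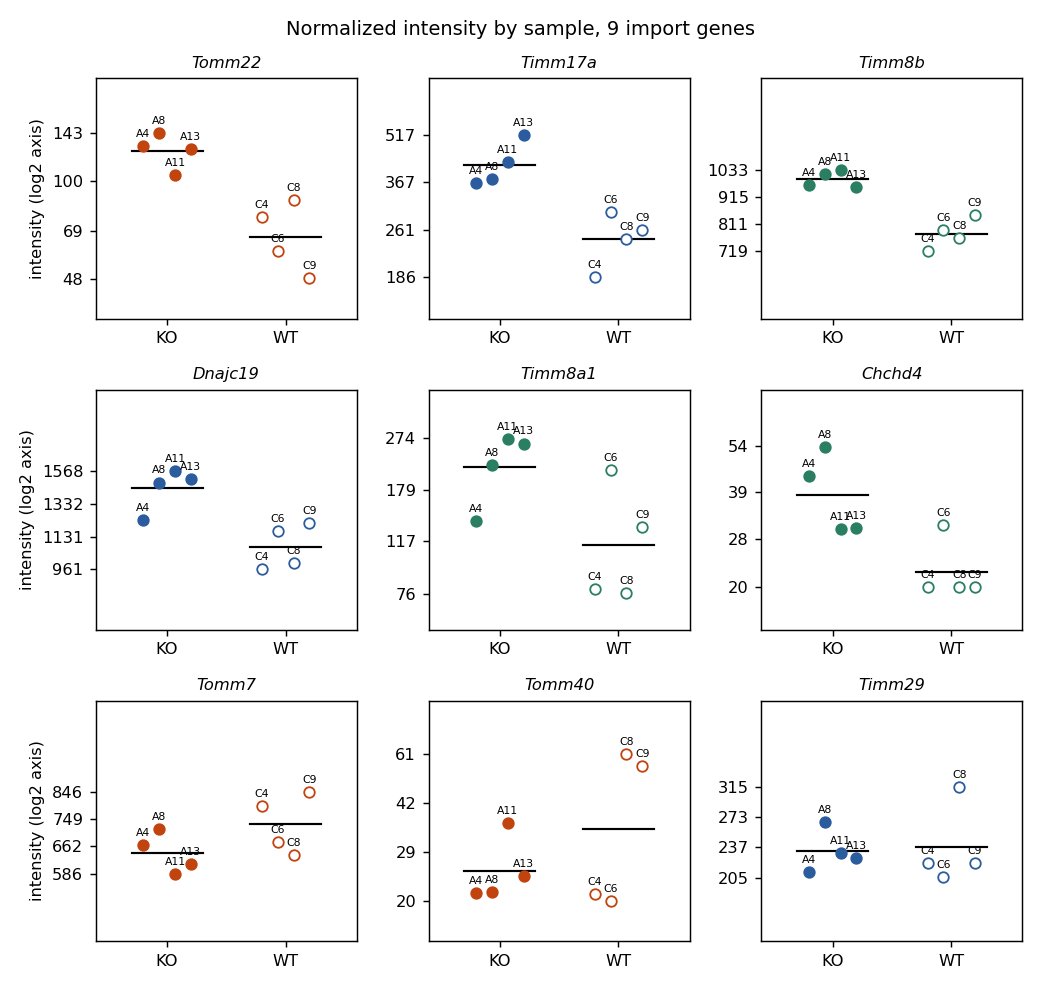
Normalized intensity (log2 axis, scaled for each gene) of 9 import genes in the KO samples (filled) and WT samples (open), with sample codes and a bar at the geometric mean of each group; the colours are those of the classes. The groups do not overlap for Tomm22, Timm17a, Timm8b and Dnajc19, and overlap for the other 5 genes.

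In the inner membrane, 9 of 12 genes were tested and none passed, with 6 above 0, 3 below 0 and a median log2 fold change of 0.31. This class takes in the motor, with Grpel1 and Grpel2 counted in it although their products are matrix proteins. The largest difference was in Timm17a, a subunit of the TIM23 translocase. It read 366, 376, 424 and 517 in KO samples and 186, 296, 244 and 261 in WT samples, with no overlap. The log2 intensity was 8.70 ± 0.23 in KO and 7.93 ± 0.28 in WT (SD, n = 4 each; log2 fold change 0.78, SE 0.21, adjusted p = 0.0639), and the gene passed without WT sample C6 (0.0452). Its X-linked paralog Timm17b was near the floor, at 20.9, 30.3, 25.7 and 30.1 in KO samples and 32.8, 29.3, 74.8 and 20 in WT samples (-0.39, SE 0.37, adjusted p = 0.540). The negative mean of Timm17b goes with WT sample C8, which was far above the other 7 samples.

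Of the other TIM23 genes, Timm50, which encodes the presequence receptor, read 165, 139.6, 221 and 220.3 in KO samples and 90.9, 199, 110.3 and 155 in WT samples (log2 fold change 0.46, SE 0.29, adjusted p = 0.340). WT samples C6 and C9 fell within the KO range. Timm21, which helps sort proteins at the translocase, read 130.1, 199.7, 166 and 155 in KO samples and 134, 154, 107 and 129 in WT samples on its brightest probe (0.31, SE 0.20, adjusted p = 0.372). The other tested probes gave 0.66 and 0.07. On the probe at 0.66, KO samples lay between 102 and 148 and WT samples between 48.3 and 93.1, without overlap (adjusted p = 0.149), and on the probe at 0.07 KO sample A8 was at the floor. Timm23, the channel itself, was at the floor on every array.

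Among the motor genes, Dnajc19 encodes the J protein that stimulates mitochondrial Hsp70 at the channel. It lay far above the floor in every sample, at 1228, 1481, 1568 and 1505 in KO samples and 961, 1162, 991 and 1213 in WT samples. The lowest KO sample was just above the highest WT sample (log2 fold change 0.42, SE 0.18, adjusted p = 0.179). Its 5 other probes were not tested, 4 of them at the floor on all arrays. Timm44, which tethers the motor to the channel, read 75.1, 133, 66.9 and 73.8 in KO samples and 68.4, 86.7, 45.9 and 32.4 in WT samples on its brightest probe (0.62, SE 0.35, adjusted p = 0.295). Its other tested probes gave log2 fold changes of 0.69 and 0.60, and none passed. On the probe at 0.69 KO samples lay between 62.8 and 93.5 and WT samples between 36.7 and 56.3, without overlap (adjusted p = 0.104).

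Grpel1, the nucleotide exchange factor of the motor, read 547, 559, 431 and 534 in KO samples and 359, 439, 461 and 429.97 in WT samples (log2 fold change 0.29, SE 0.18, adjusted p = 0.331). KO sample A11 fell within the WT range. Pam16, the regulator paired with Dnajc19, lay between 20 and 26.9 in KO samples and between 20 and 30.0 in WT samples, and its direction cannot be read so close to the floor (log2 fold change -0.00). Grpel2 was above the floor on 2 arrays and was not tested.

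The TIM22 branch was represented by Timm29, a subunit described in human cells, at 210.3, 266, 231 and 225 in KO samples and 219.8, 205, 315 and 219.8 in WT samples. Its log2 fold change was -0.03 (SE 0.20, adjusted p = 0.947). The channel gene Timm22 was at the floor on all arrays. For the matrix peptidase, which cleaves presequences, both subunit genes were dim. Pmpca read 25.2, 20, 21.3 and 25.3 in KO samples and 20, 26.5, 32.3 and 27.4 in WT samples (-0.20, adjusted p = 0.571). Pmpcb read 20, 31.2, 37.0 and 25.8 in KO samples and 20, 21.0, 20 and 20 in WT samples (0.46, adjusted p = 0.223). The groups overlapped in both genes. The cytosolic co-chaperone gene Tomm34 read 57.2, 112, 50.3 and 45.9 in KO samples and 91.5, 94.1, 78.1 and 59.7 in WT samples (-0.36, SE 0.30, adjusted p = 0.487). Its second, dimmer probe gave 0.22, so the probes disagreed in direction.

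**Figure D3:**
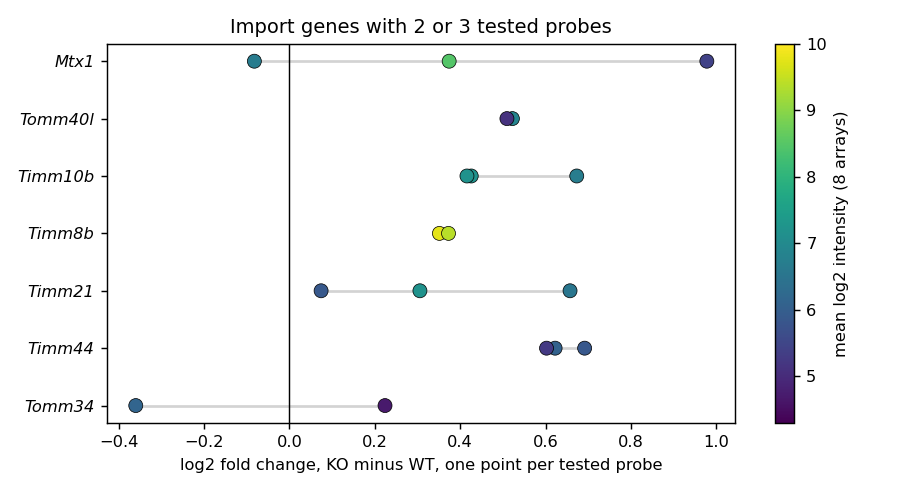
Log2 fold change, KO minus WT, at each tested probe of the 7 import genes with 2 or 3 tested probes, coloured by the probe's mean log2 intensity over 8 arrays. The probes share a direction in 5 genes and differ in Mtx1 and Tomm34.

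The outer and inner membrane genes did not separate. When each gene was centred on its mean over the 8 samples, the outer membrane genes averaged 0.13 ± 0.09 in KO and -0.13 ± 0.19 in WT, and the inner membrane genes 0.14 ± 0.13 in KO and -0.14 ± 0.17 in WT (log2 units, SD, n = 4 each). The outer minus inner difference was 0.047, -0.098, 0.051 and -0.012 in KO samples, against -0.12, -0.15, -0.0024 and 0.29 in WT samples. The KO samples lie inside the range of the WT samples, and the group means differ by -0.0064. The intermembrane space genes averaged 0.27 ± 0.13 in KO and -0.27 ± 0.30 in WT. In that class the lowest KO sample, A4 (0.096), was narrowly above the highest WT sample, C6 (0.092).

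**Figure D4:**
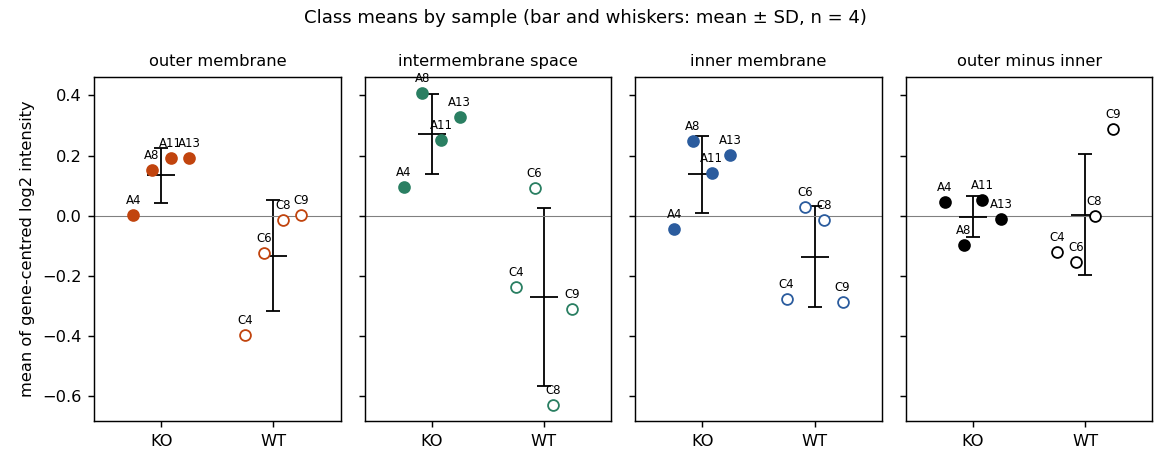
Mean of gene-centred log2 intensity over the tested outer membrane (6 genes), intermembrane space (7) and inner membrane (9) genes in each KO sample (filled) and WT sample (open), and the outer minus inner difference, with group mean ± SD. The outer minus inner values of the KO samples lie within those of the WT samples.

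Samples differed across the class as a whole. Over the 25 genes, the centred mean was -0.0092, 0.27, 0.17 and 0.19 in KO samples, and -0.27, 0.021, -0.17 and -0.20 in WT samples. A4 was the lowest KO sample in 15 of the 25 genes, and C6 the highest WT sample in 14, so the groups met at these 2 samples. A8 was the highest KO sample in 12 genes. Without A8, 18 of the 25 genes still had a log2 fold change above 0, and the median was 0.43 in the outer membrane, 0.48 in the intermembrane space and 0.26 in the inner membrane.

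Genes that act beside the import channels were followed as a second list of 38 genes, with processing peptidases, matrix chaperones, insertases, cristae proteins and proteases. Of 30 tested, 2 rose, none fell and 28 did not pass on their representative probes. A log2 fold change above 0 was found in 27, and the median was 0.62. Over all tested genes, 2.40% were called higher, 58.3% were above 0 and the median was 0.11. Afg3l2, counted among the 28, passed on a dimmer probe (log2 fold change 1.03, adjusted p = 0.0212). On that probe KO samples lay between 43.9 and 64.7 and WT samples between 21.3 and 29.5. Its representative probe gave 0.63 (adjusted p = 0.332) and the remaining probe 0.40. Lonp1, the matrix protease that degrades misfolded proteins, read 67.0, 30.9, 60.1 and 76.5 in KO samples and 29.9, 23.9, 20 and 20 in WT samples (2.40-fold higher, adjusted p = 0.0443). Timmdc1, a TIM17-related factor of complex I assembly, read 30.1, 32.2, 34.8 and 34.4 in KO samples and 20, 22.7, 20 and 20 in WT samples (1.59-fold higher, adjusted p = 0.0446). For both, WT samples at the floor may hide lower signals. When samples were left out 1 at a time, Lonp1 kept its call only without A8 and Timmdc1 only without C6. With cyclic loess or an offset of 50 neither was called. Timmdc1 but not Lonp1 was called with the authors' test and without a filter on dim probes. Lonp1 but not Timmdc1 was called with trend and robust settings. Both were called with scaling and with array weights, which called 6 genes of the list. Neither was tested where a probe had to be above the floor on all arrays. The genes of the list below 0 were Mtch2 (-0.84), Oxa1l (-0.57) and Dnajc11 (-0.45). On these probes KO sample A8 read 22.2 for Mtch2 and was at the floor for Oxa1l and Dnajc11. The other Mtch2 probes gave log2 fold changes of 1.17 and 0.86, and the other Oxa1l probe gave 0.29. None of these passed.

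A further 4 genes of this list were chosen for description after their values were seen. The mitochondrial Hsp70 gene Hspa9, which powers the motor, had a log2 fold change of 0.61 (SE 0.24, adjusted p = 0.155). Hspd1, the matrix chaperonin, read 324, 719, 489.6 and 527 in KO samples and 289, 310.4, 248 and 209 in WT samples on its brighter probe. The groups did not overlap there, and the difference did not pass (0.92, SE 0.26, adjusted p = 0.0748). Hspd1 was called with trend and robust settings, with array weights and without A4. Its partner Hspe1 had a log2 fold change of 0.99 (SE 0.39, adjusted p = 0.162), and Mipep, which trims some imported proteins further, 0.96 (SE 0.39, adjusted p = 0.166).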

How the data were processed

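Illumina bead array intensities were used as the authors deposited them, on a linear scale. The submitters' processing notes name BeadStudio 3.1.3, and no source used here states its normalization or background settings. The deposited values have a floor of 20 and near-equal values at each rank on all arrays, so overall brightness cannot differ between samples and changes below the floor are hidden. Per the file headers, a second table gives the authors' signed fold change, treated here as a score, and a p-value per probe. That deposited fold equals the ratio of group geometric means at all 45281 probes (relative tolerance 0.0001), and the deposited p-value equals an unequal-variance test on log2 intensities at all 12259 tested probes (relative tolerance 0.001). A table of signals before normalization was not used, because its 8 signal columns match no sample label.

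Probes above the floor on at least 4 of 8 arrays were tested. KO was compared with WT on log2 intensity with lmFit and eBayes in limma 3.58.1 (R 4.3.3), without covariates, and p-values were adjusted by Benjamini-Hochberg over all 12259 tested probes. The fit was tested on simulated data. All adjusted p-values in the text are from this fit unless another is named. A gene was represented by its tested probe of highest mean, and intensities were not compared between genes as amounts, since probes differ in brightness. Of the probes, 34885 had a single gene symbol, 18 had more, and 10378 were unnamed in the array table. Every tested member gene is described, with all 8 values for genes past the threshold and for up to 3 of the smallest p in each class. The members, lists and motifs were chosen with earlier results of these data known. Alternatives covered the filter, an offset, scaling, the variance model, array weights, the authors' test, the choice of probe and leaving out each sample. The number of arrays limits the precision.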

Additional observations from a re-analysis of the deposited data

Results flagged for a closer look

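An outlier rule flagged 1 sample as apart from the other 3 in 5 of 80 groups of 4 samples. The groups were each tested member probe, and the class means, in KO and in WT. Chance gives about 1 flag in 20 groups only where values are not tied at the floor, so the count cannot be set against that rate here. In KO sample A8, a Timm21 probe was at the floor of 20 where the other KO samples read between 84.3 and 90.4. In the same sample the brightest Timm44 probe read 133, where the others read between 66.9 and 75.1. In WT sample C8, Timm29 read 315, against 205 to 219.8 in the other WT samples. In WT sample C6, Chchd4 read 30.9 and Pmpcb 21.0 (20.958 before rounding), each with the other 3 WT samples at the floor. With 3 values tied at the floor, any value above it is flagged, however small the gap.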

How the results depend on the processing

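Over all tested probes 682 were called. The count was 1538 with array weights, 208 with the authors' test, 152 without a filter on dim probes, and between 254 and 1143 when 1 sample was left out (the lowest without C4, the highest without C6). The single import gene called higher became 2 with array weights and with an offset of 50 (Tomm22 and Timm17a), 0 with cyclic loess (lowest adjusted p = 0.0609), with the authors' test and without a filter, and 0 to 1 when 1 sample was left out. With eBayes using trend and robust settings the 1 gene called was Timm17a (adjusted p = 0.0445) and not Tomm22 (0.0642). Tomm22 passed in 6 of its 17 alternatives (adjusted p from 0.0175 to 0.235) and Timm17a in 4 of 17. No import gene was called lower under any of these alternatives. The median log2 fold change of outer membrane genes was 0.00 without a filter, since probes at the floor on all arrays then enter it; the inner membrane median was 0.15 there, against 0.31 with the filter. In the other settings the medians ranged from 0.30 to 0.51 (outer), 0.33 to 0.64 (intermembrane space) and 0.24 to 0.42 (inner). Each shift from the median of the main fit was within the larger of the group SDs of its class means, but not always within the smaller KO one. Cyclic loess took the median of all tested probes to 0.01, against 0.09 before it, and changed the sign of 0 of the 25 genes. Pam16 and Timm29 changed sign when some samples were left out, and Pam16 with array weights. No paired analysis was possible because the labels give no replicate numbers that tie a KO to a WT sample.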

Other observations

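KO sample A8 lacked signal at single probes that were bright on every other array. With a limit chosen after seeing the data, 171 tested probes were at the floor in A8 while all 7 other arrays read above 60, against 9 in C8, and at most 1 in each of the remaining 6 samples. A Mtx1 probe was among the 171. In A8 that probe was at the floor, while the other Mtx1 probes in the same sample read 362 and 73.9, the last being the highest of all 8 samples. A dimmer Timm21 probe was at the floor in A8 as well, while the other tested Timm21 probes read 199.7 and 148 there, each the highest of the 8 samples. For Tomm34, the dimmer probe was at the floor in A8 and the brighter read 112, again the highest of the 8 samples. That dimmer probe was at the floor in WT samples C4 and C8 too, so its floor value is not particular to A8. The dimmest tested Timm44 probe read 21.6 in A8, the lowest of the 8 samples, where the brightest Timm44 probe read 133, the highest. WT samples C4 and C9 were nearly as low on that dimmest probe, at 22.3 and 24.0.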
